A study of Mus musculus with 2 samples.

Results

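The metallothionein genes Mt1, Mt2 and Mt3 were followed through every cell class of a single-cell comparison of Opa1-deficient and control hippocampal cells. They were taken by gene symbol, and all 3 were found among the 22587 gene symbols that both count matrices list. Metallothioneins are small cysteine-rich proteins that bind zinc and copper and buffer the free level of these metals. In mice the isoforms Mt1 and Mt2 are made in most tissues, and their transcription is raised by zinc, cadmium, glucocorticoids and several kinds of stress, with metals acting through the zinc-sensing factor MTF1 at short promoter sequences named metal response elements (MREs). Mt3 was first described as a growth inhibitory factor of the brain, is made mainly in the nervous system and responds little to metals. In the adult brain astrocytes and ependymal cells are known for high levels of metallothioneins, and radial glia-like neural stem cells (NSCs) share much of the astrocyte programme. Mt4, the other gene of the mouse cluster, belongs to stratified epithelia.

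The samples were YFP+, propidium iodide-negative cells sorted from the hippocampus of mice aged 12 weeks, 4 weeks after tamoxifen given at 8 weeks. All mice carried Nestin-CreERT2 and ROSA26YFP, so that tamoxifen marked Nestin-expressing cells and their progeny with YFP. The Opa1 cKO mice also carried floxed alleles of Opa1, the dynamin-related GTPase of the inner mitochondrial membrane. The control (CT) mice were negative for Opa1-Flox according to the sample protocol, although the strain label of both samples names Opa1-Flox. Cells of several mice were pooled into 1 library per genotype with the 10x Genomics 3′ v2 assay, so mice cannot be told apart, nothing was tested between genotypes, and all intervals cover counting error only. The driver marks every cell type that expresses Nestin at the time of tamoxifen, mural, endothelial and ependymal cells included, and a 3′ assay also counts Opa1 transcripts that lack the deleted part.

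The 3 genes lie in 1 cluster on mouse chromosome 8, all on the plus strand and with 3 exons at most in any transcript. In the GENCODE M21 annotation of mm10, Mt4 spans 94137197 to 94139031, Mt3 94152607 to 94154146, Mt2 94172664 to 94173568 and Mt1 94179082 to 94180327, so that the whole cluster covers 43131 bases and Mt2 ends 5513 bases before Mt1 begins. The promoter windows are shown as a description, and whether their motifs bear on differences between cells or between members was not tested. The annotation lists 3 transcripts of Mt1, 2 of Mt2 and 3 of Mt3. Only the window at 1 RefSeq start per gene was searched, so elements outside it were not seen. RefSeq promoter windows on GRCm38.p6, of 250 bases before and 50 bases from the annotated start, and counted from the RefSeq start, which for Mt2 lies upstream of the GENCODE start, were chr8:94178839-94179138 for Mt1, chr8:94172368-94172667 for Mt2 and chr8:94152357-94152656 for Mt3, all on the plus strand. Capitals mark matches to the MRE core, TGCACNC or TGCGCNC, on either strand.
Mt1: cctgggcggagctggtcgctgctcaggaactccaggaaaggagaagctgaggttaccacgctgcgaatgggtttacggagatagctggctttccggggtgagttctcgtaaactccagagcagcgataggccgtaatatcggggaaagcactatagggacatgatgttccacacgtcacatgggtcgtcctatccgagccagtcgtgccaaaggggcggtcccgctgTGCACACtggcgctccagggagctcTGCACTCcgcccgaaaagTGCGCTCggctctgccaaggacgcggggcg
Mt2: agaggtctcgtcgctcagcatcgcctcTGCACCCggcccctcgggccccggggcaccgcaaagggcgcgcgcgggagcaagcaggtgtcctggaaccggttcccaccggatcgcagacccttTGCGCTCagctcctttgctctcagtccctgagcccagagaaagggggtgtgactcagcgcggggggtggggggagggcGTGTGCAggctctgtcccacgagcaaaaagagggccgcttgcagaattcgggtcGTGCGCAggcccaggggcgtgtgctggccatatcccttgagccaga
Mt3: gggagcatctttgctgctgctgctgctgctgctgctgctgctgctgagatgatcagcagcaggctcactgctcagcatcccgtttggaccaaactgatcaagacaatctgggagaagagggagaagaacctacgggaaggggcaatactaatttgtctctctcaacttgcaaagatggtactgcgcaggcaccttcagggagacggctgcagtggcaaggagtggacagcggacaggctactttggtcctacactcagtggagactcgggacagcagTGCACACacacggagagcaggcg
The Mt1 window held 3 matches, at bases -23, 3 and 21 from the start, the Mt2 window 4, at -223, -128, -50 and 5, and the Mt3 window 1, at 28. At least 1 match was present in 25.7% of the 32851 promoter windows of the table, at least 3 in 1.97% and at least 4 in 0.517%. An antioxidant response element, TGACNNNGC, was found once, at -79 in the Mt2 window, where 12.4% of all windows hold one. Neither the composite element of C/EBP and ATF factors, TGATGNAA, present in 3.97% of windows, nor the palindrome of the glucocorticoid response element, present in 0.0639%, was found in the 3 windows. A match of letters is a description and not a site that was shown to be used. No window of 98 bases of an Mt1, Mt2 or Mt3 transcript occurred in a transcript of another gene among the 141767 transcripts of the annotation, and the same held at 50 bases, so that reads within transcripts of the 3 genes can be assigned to each.

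The CT library held 4634 barcodes and the Opa1 cKO library 6475, with 36 barcode sequences in common. After filters on detected genes, mitochondrial share and YFP, 1790 and 3764 cells remained, 9 barcodes of which were common to both, with medians of 2555 and 3008 unique molecular identifiers (UMIs) per cell. A UMI stands for 1 captured transcript, and because the assay reads only the 3′ end the counts were not divided by transcript length. Levels are UMIs per 1000000 UMIs summed over the cells of a class (CPM). In NSC pool-like cells the targeted gene Opa1 had 70 UMIs in the CT library, or 18.5 CPM, and 69 in the Opa1 cKO library, or 7.90 CPM. That is a log2 ratio of -1.23 (95% interval -1.73 to -0.73). Cells were clustered and named from marker genes. The NSC pool-like class, with 1378 CT and 2663 Opa1 cKO cells, came from a pair of clusters that split by genotype: the first held 1374 CT and 787 Opa1 cKO cells, and the second 4 and 1876. The second was led by the stress genes Gdf15, Slc7a11, Hmox1, Nupr1 and Chac1. Of the 10 NSC pool markers 6 were over 2-fold in both clusters, and the markers Aldoc, Apoe, Slc1a2, Slc1a3 and Aqp4 are those of astrocytes as well, so the 2 cell types cannot be told apart in it. All 10 had UMIs in both libraries, with a summed level of 73844 CPM in CT and 66226 in Opa1 cKO. Within this class the 5 microglia markers summed to 66.2 CPM in CT and 123 in Opa1 cKO and the 4 oligodendrocyte precursor markers to 111 and 316, and their part in the results was not tested. Hemoglobin genes led the endothelial-like cluster beside Cldn5 and Ly6c1. In that class the mural markers summed to 15385 CPM in CT and 13223 in Opa1 cKO, above its own endothelial markers at 13023 and 12854, so mural and endothelial RNA are not separated there. The 8 activated NSC markers summed to 3687 and 2582.5 CPM in activated NSC-like cells. They were at 4244 and 3074 in progenitor and neuron-like cells and at 741 and 703 in NSC pool-like cells. NSC pool markers summed to 43860 CPM in the activated NSC-like cells of Opa1 cKO, so the RNA of these 2 classes is not fully separated.

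Metallothionein transcripts were among the most abundant of the NSC pool-like cells. In this class Mt1 was the gene with the 3rd most UMIs in either library, Mt3 ranked 9 in CT and 7 in Opa1 cKO, and Mt2 ranked 17 and 13. Together the 3 genes made up 3.03% of all UMIs of the class in CT and 2.40% in Opa1 cKO. Mt4 had 0 UMIs among the 10799936 of all CT barcodes and the 18662032 of all Opa1 cKO barcodes. With 3 UMIs taken as the upper limit of a count of 0, that allows a level of up to 0.278 and 0.161 CPM. This limit is lower than that of the exact interval used for the other levels.

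Mt1 was highest in NSC pool-like cells, at 17056 CPM in CT (95% interval 16925 to 17189) and 12699 in Opa1 cKO (12624 to 12774). Ependymal-like cells, the ciliated lining of the ventricles, followed at 11087 CPM in CT and 10649 in Opa1 cKO, and activated NSC-like cells at 8506 and 10551. The interval of the activated NSC-like value in Opa1 cKO, 10354 to 10751, overlapped that of the ependymal-like value, 10443 to 10859. Overlap of intervals is no test of equality, here or below, and values with overlapping intervals may still differ beyond counting error. Mural-like cells had 3235 and 2850 CPM. Endothelial-like cells had 1709 and 1927 CPM and oligodendrocyte-like cells 1649 and 2394. The 2 classes overlapped in CT, with intervals of 1545 to 1885 and 1504 to 1805. Progenitor and neuron-like cells, the neurogenic descendants of the NSCs, had the lowest Mt1 in both libraries, 893 and 1467 CPM, 19.1-fold and 8.65-fold below NSC pool-like cells.

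Mt2 followed the same broad order at lower levels. It had 4846 CPM in CT (4776 to 4916) and 4727 in Opa1 cKO (4682 to 4773) in NSC pool-like cells, 3943 and 4405 in activated NSC-like cells and 2749 and 2681 in ependymal-like cells. In mural-like cells it was at 859 and 952 CPM. The lowest classes of CT were endothelial-like at 477, progenitor and neuron-like at 447 and oligodendrocyte-like at 326 CPM, whose intervals of 392 to 574, 387 to 513 and 264 to 399 overlapped one another. In Opa1 cKO progenitor and neuron-like cells had 796 CPM, which overlapped the mural-like value, oligodendrocyte-like cells 673 and endothelial-like cells 588. The intervals of the first and the last of these, 726 to 871 and 514 to 670, did not overlap.

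Mt3, the isoform of the nervous system, had a different leading class. It was highest in ependymal-like cells, at 10584 CPM in CT (9984 to 11212) and 8103 in Opa1 cKO (7923 to 8286). NSC pool-like cells had 8413 (8321 to 8506) and 6584 (6531 to 6639), below ependymal-like cells by more than counting error in either library. Activated NSC-like cells had 2738 and 4776 CPM, mural-like cells 1390 and 1562, oligodendrocyte-like cells 587 and 815, endothelial-like cells 507 and 611 and progenitor and neuron-like cells 396 and 548. The last pair of classes overlapped in both libraries, and oligodendrocyte-like and endothelial-like cells overlapped in CT.

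**Figure D1:**
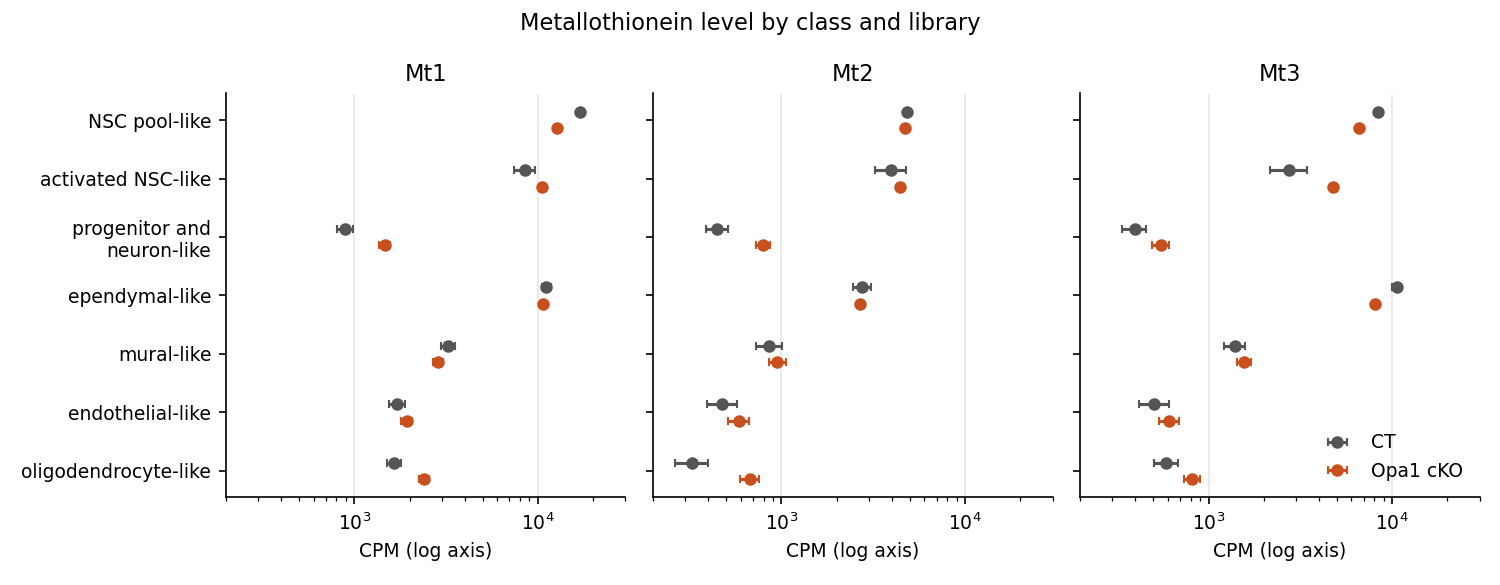
CPM (log axis) of Mt1, Mt2 and Mt3 by cell class in the CT and Opa1 cKO libraries, with exact Poisson 95% intervals. NSC pool-like, activated NSC-like and ependymal-like cells lie to the right of the other classes in each panel, and Mt3 alone has its highest value in ependymal-like cells.

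The make-up of the metallothionein UMIs differed between these classes. In NSC pool-like cells Mt1 was 56.3% of them in CT and 52.9% in the Opa1 cKO library, Mt2 16.0% and 19.7% and Mt3 27.8% and 27.4%. In ependymal-like cells Mt3 took 43.3% in CT (exact binomial 95% interval 41.5 to 45.2) and 37.8% in Opa1 cKO (37.1 to 38.5), and Mt2 11.3% and 12.5%. Progenitor and neuron-like cells had the largest Mt2 share of Opa1 cKO, 28.3% (26.2 to 30.5), and 25.7% in CT (22.7 to 29.0). Per Mt2 UMI the NSC pool-like cells had 3.52 Mt1 UMIs in CT and 2.69 in Opa1 cKO, and ependymal-like cells 4.03 and 3.97.

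**Figure D2:**
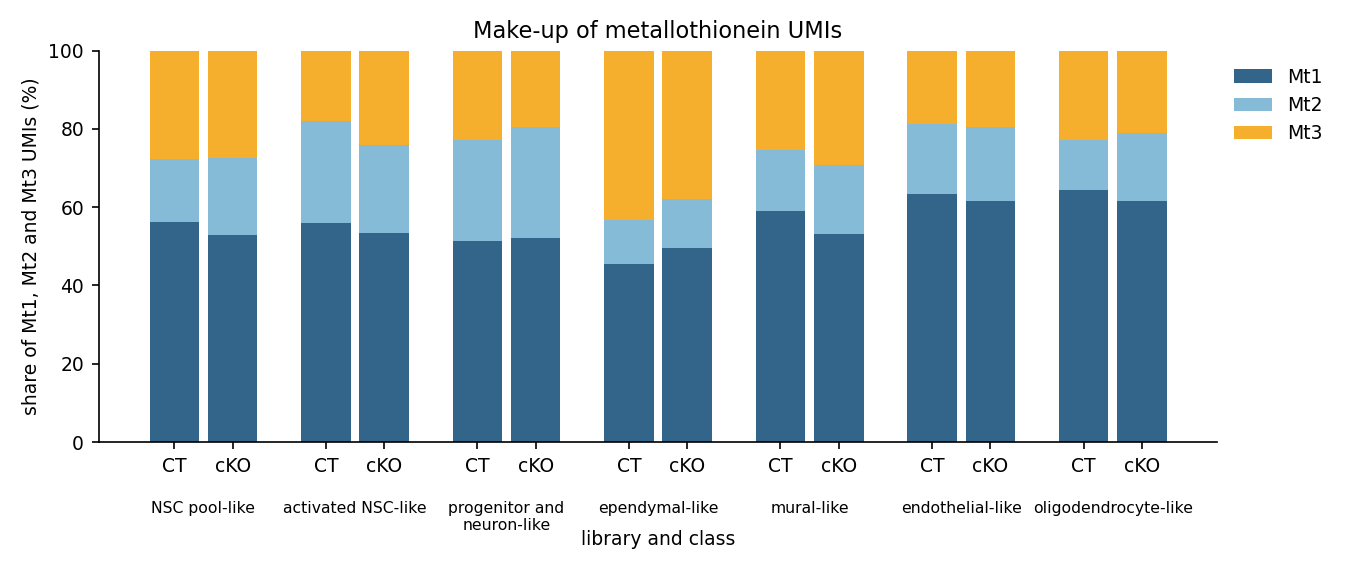
Share of the Mt1, Mt2 and Mt3 UMIs (percent) that each gene took, by class and library, as stacked bars from 0 to 100. Mt3 takes its largest share in ependymal-like cells, 43.3% in CT and 37.8% in Opa1 cKO, and Mt1 is the largest part in every class.

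Low levels in the other classes stand beside free RNA, which droplets take up from broken cells. Apoe, the abundant apolipoprotein of astrocyte-like cells, serves as a gauge because 1 source of free RNA keeps the ratio of its genes. For 100 Apoe UMIs NSC pool-like cells had 39.7 Mt1 UMIs in CT and 33.7 in Opa1 cKO. The same ratio was 34.6 and 34.1 in progenitor and neuron-like, 37.3 and 34.2 in mural-like and 41.7 and 38.4 in endothelial-like cells. Oligodendrocyte-like cells had 21.8 and 26.2, and ependymal-like cells 64.9 and 60.3. Other ratios were less alike. For 100 UMIs of Aldoc, another abundant gene of these cells, NSC pool-like cells had 189 Mt1 UMIs in CT and 130 in Opa1 cKO, against 238 and 204 in progenitor and neuron-like, 238 and 153 in mural-like and 206 and 195 in endothelial-like cells. For 100 Apoe UMIs Mt2 had 11.3 and 12.5 in NSC pool-like, 17.3 and 18.5 in progenitor and neuron-like and 11.6 and 11.7 in endothelial-like cells. The low levels in these classes are given as measured and are not read as expression. How much of them was free RNA, and how much doublets, was not tested.

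The spread over cells within these classes was uneven. In CT mural-like cells the 10% of cells with most Mt1 held 82.1% of the class's Mt1 UMIs, and in Opa1 cKO 72.0%, against 24.3% and 24.0% in NSC pool-like cells. The median mural-like cell was at 720 and 683 CPM of Mt1, and the 95th percentile at 8840 and 8145. For Mt3 the 10% of cells with most UMIs held 88.8% and 88.4% in mural-like, 82.2% and 73.4% in endothelial-like and 61.2% and 74.5% in progenitor and neuron-like cells, and the median cell of each had 0 UMIs of Mt3. In ependymal-like cells the same share of cells held 22.3% and 21.5% of Mt1, close to the NSC pool-like values.

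Detection followed the same pattern. Every NSC pool-like and ependymal-like cell of both libraries had an Mt1 UMI. Of the progenitor and neuron-like cells 79.9% in CT (exact binomial 95% interval 72.2 to 86.2) and 80.0% in Opa1 cKO (73.2 to 85.7) had one, at median depths of 2836 and 3146 UMIs against 2492 and 2958 in NSC pool-like cells. With each cell thinned to 1500 UMIs and shallower cells left out, 3 and 7 of this class, the shares were 66.9% and 68.1%. An Mt3 UMI was present in 35.3% and 27.6% of the thinned progenitor and neuron-like cells, and in 35.1% and 29.7% of the oligodendrocyte-like cells, which gave a like low share.

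Between genotypes Mt1 and Mt3 were lower in Opa1 cKO NSC pool-like cells, and Mt2 was nearly level. Mt1 was at 17056 CPM in CT and 12699 in the Opa1 cKO library, a difference of -25.5% and a log2 ratio of -0.43 (95% interval -0.44 to -0.41). Mt3 was at 8413 and 6584 CPM, a difference of -21.7% and a log2 ratio of -0.35 (-0.37 to -0.33). Mt2 was at 4846 and 4727 CPM, a log2 ratio of -0.04 (-0.06 to -0.01). Apoe was lower in Opa1 cKO cells of this class as well, at -0.19 (-0.20 to -0.18), and Aldoc was higher, at 0.11 (0.09 to 0.13). Over the 5549 genes with at least 300 UMIs in this class the median log2 ratio was 0.14 when scaled by total UMIs, a median that TMM scaling moved by only -0.011, and relative to 0.14 the members stood at -0.57 for Mt1, -0.18 for Mt2 and -0.49 for Mt3. No member was 2-fold higher or lower, where 2.65% of all genes were at least 2-fold higher and 1.14% at least 2-fold lower. Of all 5549 genes 13.0% had a lower ratio than Mt1, 16.6% than Mt3 and 35.4% than Mt2. The median among the 402 genes with at least 5000 UMIs was 0.19, and 7.71% of those had a lower ratio than Mt1.

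The direction differed among the other classes. In progenitor and neuron-like cells, 139 CT and 170 Opa1 cKO, all 3 members were higher in Opa1 cKO, with log2 ratios of 0.72 (0.54 to 0.89) for Mt1, 0.83 (0.59 to 1.08) for Mt2 and 0.47 (0.20 to 0.74) for Mt3. Apoe was higher by a like amount there, 0.74 (0.64 to 0.84), and Aldoc was at 0.93 (0.68 to 1.20). The median progenitor and neuron-like cell had 683 CPM of Mt1 in CT and 730 in Opa1 cKO. At a share of mitochondrial transcripts of 1% to under 3%, with 24 and 69 cells, the log2 ratio there was 0.07 (-0.33 to 0.49) for Mt1, 0.78 (0.18 to 1.44) for Mt2 and -0.71 (-1.33 to -0.06) for Mt3. At 3% or more, with 112 CT and only 19 Opa1 cKO cells, Mt1 was at 883 and 2338 CPM, Mt2 at 462 and 1010 and Mt3 at 380 and 1314. The median cell there had 690 and 538 CPM of Mt1, 229 and 269 of Mt2 and 0 of Mt3 in both libraries. The higher sums of Mt1 and Mt3 at this share thus rested on few cells. The Mt3 difference in this class rested on few cells: its log2 ratio was 0.12 (-0.31 to 0.56) with cells thinned to 1500 UMIs and 0.05 (-0.24 to 0.35) without the 5% of cells with most UMIs, both including 0. In oligodendrocyte-like cells, 74 and 101, the log2 ratios were 0.54, 1.04 and 0.47 for Mt1, Mt2 and Mt3, and thinned cells gave 0.20 (-0.31 to 0.71) for Mt3. Apoe was at 0.28 in this class and Aldoc at 0.96 (0.73 to 1.20). The median oligodendrocyte-like cell had 1128 CPM of Mt1 in CT and 1277 in Opa1 cKO, and 0 and 151 of Mt2. Of the thinned cells 79.7% in CT and 70.3% in Opa1 cKO had an Mt1 UMI, and 27.0% and 35.6% an Mt2 UMI. In ependymal-like cells, 39 and 244, Mt3 differed by -23.4% in Opa1 cKO, with a log2 ratio of -0.39 (-0.47 to -0.30), while the intervals of Mt1 (-0.14 to 0.03) and Mt2 (-0.21 to 0.14) included 0. The mural-like and endothelial-like intervals included 0 for Mt2 and Mt3, and Mt1 in mural-like cells was at -0.18 (-0.34 to -0.03), with values from -0.42 to 0.45 under the alternatives, the highest without the YFP filter. The activated NSC-like class held only 10 CT cells, and its log2 ratios of 0.31 for Mt1 and 0.80 for Mt3 depended on which CT cells were assigned to it. With the members, the mt- genes and the stress genes left out of clustering, 42 CT cells were in the class and the values were -0.01 and -0.09. Differences between classes were not tested.

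**Figure D3:**
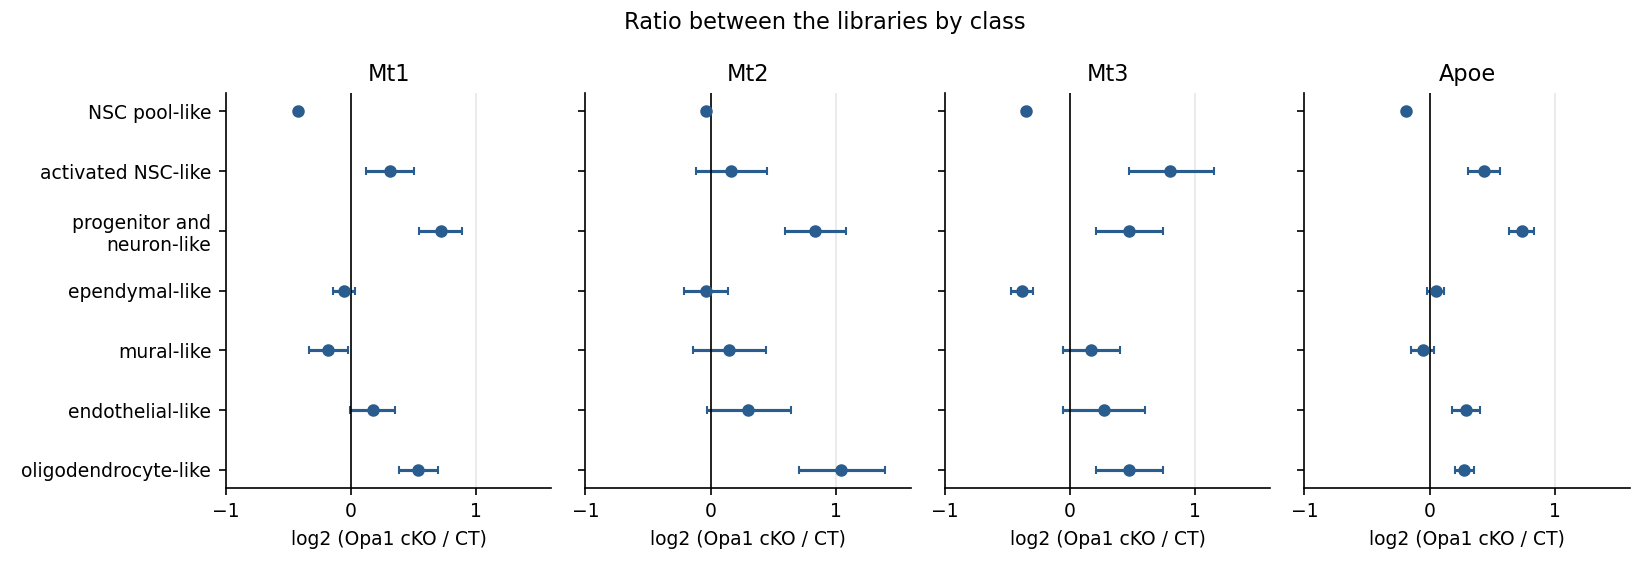
Log2 ratio of CPM, Opa1 cKO over CT, by class for Mt1, Mt2, Mt3 and Apoe, with exact 95% counting intervals and a line at 0. In NSC pool-like cells all 4 genes lie left of the line, Mt2 nearest to it. In progenitor and neuron-like and oligodendrocyte-like cells all 4 genes lie right of it.

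The mitochondrially encoded transcripts (mt- genes) divided the Opa1 cKO NSC pool-like cells. Their share of a cell's UMIs had a median of 5.24% in CT and 0.677% in Opa1 cKO. Under 1% were 1623 Opa1 cKO cells and 3 CT cells, 1% to under 3% were 269 and 107, and 3% or more were 771 and 1268. Since mt- UMIs are part of the total, CPM values are given with all UMIs and, where that changes the reading, without mt- UMIs.

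Within the Opa1 cKO library Mt3 and Mt1 were lower in cells of low mt- share. Mt3 was at 8246 CPM in cells of 3% or more, 6571 in cells of 1% to under 3% and 5807 in cells under 1%. The log2 ratio of the last to the first was -0.51 (-0.53 to -0.48), and -0.59 without mt- UMIs. Mt1 was at 14670, 12496 and 11804 CPM in the same groups, a log2 ratio of -0.31 (-0.33 to -0.30), and -0.39 without mt- UMIs. Mt2 was at 4717, 4614 and 4749 CPM, with a log2 ratio of 0.01 (-0.02 to 0.04) by total UMIs and -0.071 without mt- UMIs, and -0.20 and -0.27 when scaled by TMM and by the median of ratios. Over 4083 genes the median log2 ratio was 0.28, and relative to it the members stood at -0.59 for Mt1, -0.27 for Mt2 and -0.78 for Mt3. No member was past 2-fold here either, where 4.04% of genes were at least 2-fold higher in cells under 1% and 0.882% at least 2-fold lower. Only 3.82% of the 4083 genes had a lower ratio than Mt3, and 8.23% than Mt1. Among the 215 genes with at least 5000 UMIs these shares were 10.7% and 21.4%.

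Within the same group of mt- share the members parted. In cells of 3% or more Mt3 was at 8485 CPM in CT against 8246 in Opa1 cKO cells, a log2 ratio of -0.04 (-0.07 to -0.02), and Mt2 at 4840 and 4717, a log2 ratio of -0.04 (-0.07 to -0.00344). Mt1 was at 17087 and 14670 CPM, a log2 ratio of -0.22 (-0.24 to -0.20). In this comparison the median of 3063 genes was 0.01, 0.0653% were at least 2-fold higher and 0.816% at least 2-fold lower, and none of the members was among them. Between 1% and under 3% Mt1 was at 16580 CPM in CT against 12496 in Opa1 cKO cells, a log2 ratio of -0.41 (-0.46 to -0.36), and Mt3 at 7388 and 6571, a log2 ratio of -0.17 (-0.25 to -0.09). Median depth was 2153 UMIs per CT cell and 2657 per Opa1 cKO cell in this group, and 2536 and 3041 at 3% or more. The shares were not matched within the group of 1% to under 3%. There 96 of 107 CT cells lay between 2% and 3%, and 190 of 269 Opa1 cKO cells between 1% and 2%. In the bin of 2% to 3% Mt1 was at 16532 CPM in CT and 13094 in Opa1 cKO. Mt3 was at 7298 and 6934 there, with overlapping intervals.

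Finer bins gave the same picture for Mt3 in both libraries. In Opa1 cKO its level was 5346 CPM in the 318 cells under 0.25%, 6009 between 0.5% and 1%, 6934 between 2% and 3%, 7447 between 3% and 5%, 8629 between 5% and 8% and 9325 in the 101 cells of 8% or more. In CT it was 7298 between 2% and 3%, 7904 between 3% and 5%, 8643 between 5% and 8% and 9358 at 8% or more. The intervals of the libraries overlapped from 5% upwards, at 8499 to 8789 in CT and 8461 to 8799 in Opa1 cKO between 5% and 8%, and between 2% and 3%, and did not overlap between 3% and 5%. Mt1 in Opa1 cKO went from 11600 CPM under 0.25% to 14662 between 5% and 8%, and in CT from 16532 between 2% and 3% to 17404 between 5% and 8%, with 14513 and 16655 at 8% or more, where the level was no higher. It was lower in Opa1 cKO in each of the 4 bins that both libraries filled. Mt2 stayed between 4476 and 4892 CPM over all bins of both libraries.

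**Figure D4:**
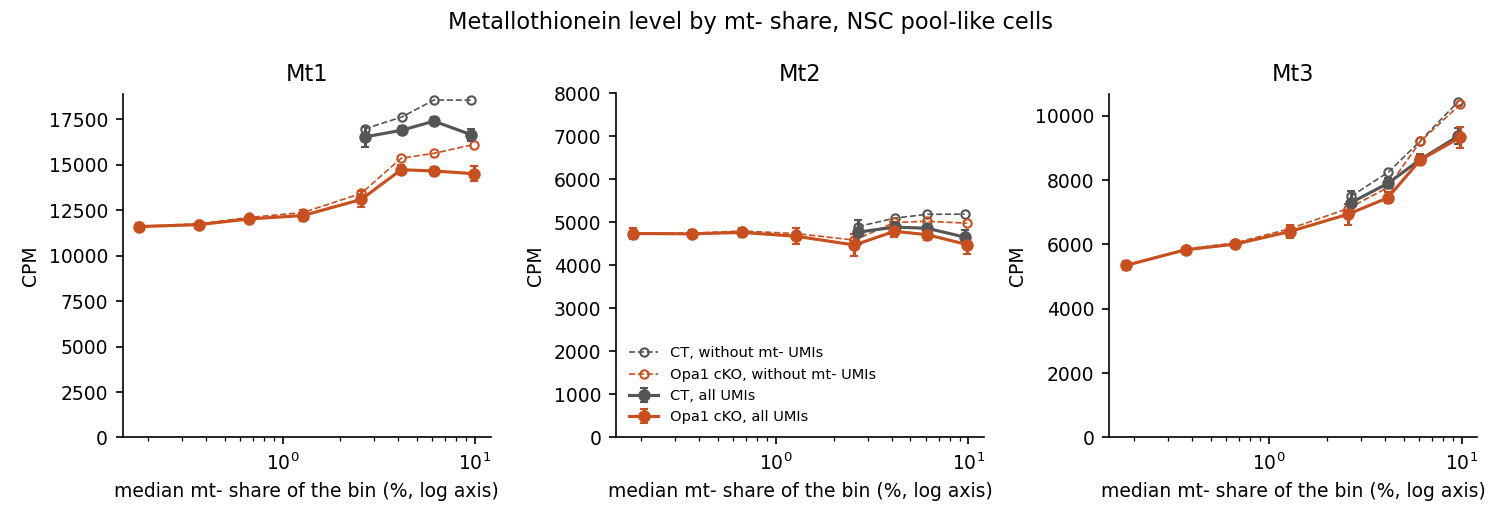
CPM of Mt1, Mt2 and Mt3 in NSC pool-like cells against the median mt- share of each bin (percent, log axis), by library, with Poisson 95% intervals; dashed lines leave mt- UMIs out of the total. The lines of the libraries meet for Mt3 from 5% upwards, 8643 and 8629 CPM, stay apart for Mt1, 17404 and 14662 CPM, and run flat for Mt2.

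The mt- share groups coincided largely with the clusters. Of the 1876 Opa1 cKO cells in the cluster led by stress genes, 1623 were under 1%, 238 between 1% and 3% and 15 at 3% or more, and of the 787 in the other cluster 0, 31 and 756. The Opa1 cKO cells of the first had 11869 CPM of Mt1, 4738 of Mt2 and 5887 of Mt3. In the cluster shared by both libraries the values were 14697, 4702 and 8264 in Opa1 cKO and 17040, 4841 and 8404 in CT. A difference between clusters of these cells is no independent observation, since the genes took part in the clustering. In ependymal-like cells of the Opa1 cKO library Mt3 had overlapping intervals in the mt- share groups. It was at 8150 CPM in 173 cells under 1%, 7882 in 54 cells of 1% to under 3% and 8398 in 17 cells of 3% or more, against 10369 in 37 CT cells of 3% or more. Mt1 in the same 3 groups was at 10543, 11254 and 9668 CPM, and the interval of the middle group, 10826 to 11694, overlapped neither of the others.

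Between single NSC pool-like cells thinned to 1500 UMIs, 1284 CT and 2447 Opa1 cKO, Mt1 had a median of 24 UMIs in CT (quartiles 18 and 31, 5th and 95th percentile 11 and 43) and 18 in Opa1 cKO (13 and 23, 8 and 33). Mt3 had a median of 12 (9 and 15, 5 and 21) and 9 (6 and 12, 4 and 17), and Mt2 7 (4 and 10, 2 and 14) and 6 (4 and 9, 2 and 14). The cells of both libraries overlapped widely. Of Opa1 cKO cells 76.5% were below the CT median of Mt1, 69.4% below that of Mt3 and 50.1% below that of Mt2, against 48.6%, 48.1% and 47.8% of CT cells. Nearly every thinned cell had both transcripts: 0 cells of either library had no Mt1, and 0 CT and 6 Opa1 cKO cells had no Mt3.

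The variance over the mean (Fano factor, which is 1 for counting error alone) was 3.79 for Mt1 in CT and 3.15 in Opa1 cKO, ranks 7 of 159 and 12 of 202 among genes of at least 1 UMI per thinned cell, whose median was 1.29 and 1.22. Mt2 and Mt3 lay between 2.03 and 2.15. At equal relative spread this factor is larger for genes of more UMIs, such as Mt1, so its rank partly follows its level. After counting error was subtracted, the coefficient of variation was 0.334 and 0.337 for Mt1, 0.399 and 0.394 for Mt2 and 0.293 and 0.326 for Mt3, so that Mt2 varied most of the 3 for its level. The same coefficient was 0.285 and 0.349 for Apoe and 0.284 and 0.276 for Aldoc. Within the Opa1 cKO cells under 1% mt- share that of Mt3 was 0.272, close to the 0.288 of cells of 3% or more.

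**Figure D5:**
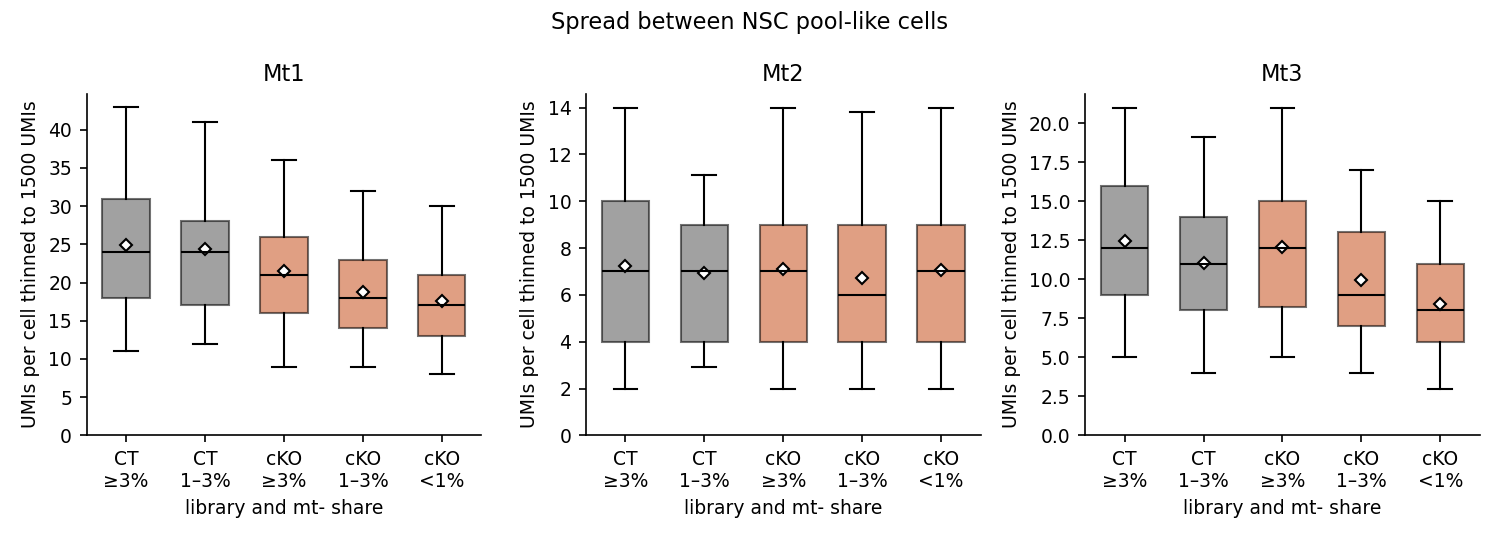
UMIs per NSC pool-like cell thinned to 1500 UMIs, by library (CT, Opa1 cKO as cKO) and mt- share; boxes give quartiles and median, whiskers the 5th and 95th percentile, diamonds the mean. Median Mt1 is 24 in CT and 17 in Opa1 cKO cells under 1%, median Mt3 12 and 8, and median Mt2 7 in both.

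Mt1 and Mt2 varied together from cell to cell. Over the thinned NSC pool-like cells, on log2(1 + UMI), CT cells gave a Pearson r of 0.479 for the pair and Opa1 cKO cells one of 0.467, and each gene was the other's closest gene among 397. These correlations are descriptions over cells that share a library, with no p. For Mt1 and Mt3 r was 0.346 and 0.263, and for Mt2 and Mt3 0.225 and 0.0671. Within Opa1 cKO cells under 1% mt- share r was 0.482 for Mt1 and Mt2 and 0.169 for Mt1 and Mt3. For Mt1 the next genes were Gstm5, Gstm1 and Prdx1, of glutathione conjugation and peroxide removal, at 0.181 and 0.192, 0.158 and 0.170, and 0.159 and 0.156. For Mt2 the next were Id3, Prdx6, Dbi and Bmyc, all under 0.15. For Mt3, ranked by the lower r of both libraries, Gstm5 came next at 0.166 and 0.301. Then came Cst3, a secreted protease inhibitor of astrocytes, at 0.156 and 0.370, followed by Uqcr11 and Aldoc. In Opa1 cKO Cst3 and Gstm5 were more like Mt3 than Mt1 was. Those Opa1 cKO values pool the mt- share groups, which differ in Mt3. Both genes were among the leading genes of the cluster with most Opa1 cKO cells of 3% or more. No r within a group is given for them. Deeper cells had slightly more Mt1 after thinning, with r against log2 UMIs of 0.268 in CT and 0.111 in Opa1 cKO.

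The most like genes over the 14 sums of library and class, on log2(CPM + 10), were mostly others. For Mt1 these were Slc25a18, a mitochondrial glutamate carrier, at r = 0.975, then Mt3, Arhgap5, Ngef and Ntrk2. For Mt2 they were Ntrk2, the receptor of brain-derived neurotrophic factor, at 0.990, Pdpn, Plcd4, Id4 and Mt1. For Mt3 they were Ramp1, an accessory protein of receptors, at 0.993, Mt1, Ngef, Arhgap5 and Ppp1r1b. The 14 points share 2 libraries and their depth, and 7149 genes were compared.

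Genes of metal handling and of the signals known to act on Mt1 and Mt2 were read from lists, among genes with at least 300 UMIs. Of all 5549 such genes 2.65% were at least 2-fold higher and 1.14% at least 2-fold lower between genotypes. In lists this short a count of 0 is near those shares. Of 21 zinc handling genes 7 had at least 300 UMIs, and 0 were past 2-fold in either direction between genotypes. The median log2 ratio of the 7 was 0.17, beside 0.14 over all genes. Slc39a12, the zinc importer ZIP12 of the brain, was at 510 CPM in CT and 412 in Opa1 cKO, Slc39a1 at 201 and 140, Slc39a7 at 85.8 and 109 and Slc30a10 at 86.9 and 52.5. Mtf1, the metal-sensing activator, had 42 and 108 UMIs, and Slc30a1, the zinc exporter under MTF1 control, 91 and 176, under that minimum. Their log2 ratios were 0.15 (-0.37 to 0.70) and -0.26 (-0.63 to 0.12). Of 12 copper handling genes 8 were read and 0 were past 2-fold, with a median of 0.16. Prnp, which encodes the copper-binding prion protein, was the most abundant of them, at 1514 and 2770 CPM, and Cox17, a copper chaperone of mitochondria, was at 225 and 165. Of 8 iron handling genes 5 were read and 1 was at least 2-fold lower, Tfrc, the transferrin receptor, at 69.9 and 33.1 CPM. The ferritin subunits Fth1 and Ftl1 were at 2089 and 4086 and at 944 and 1413 CPM. Aco1 was at 32.0 and 35.6 CPM, with an interval of its log2 ratio that included 0.

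The list named glucocorticoid-induced held 9 genes, among them Nr3c1, which encodes the receptor. Of these 3 were read and 0 were past 2-fold, with a median of -0.25, beside 0.14 over all genes. That median is the log2 ratio of Nr3c1 itself. The induced genes read differed in direction, Tsc22d3 at -0.65 and Klf9 at 0.17. The shares of all genes, 2.65% at least 2-fold higher and 1.14% at least 2-fold lower, apply to the following counts as well. Tsc22d3 (GILZ) was at 467 CPM in CT and 297 in Opa1 cKO, Klf9 at 230 and 258 and Nr3c1, the receptor itself, at 102 and 85.9. Among those under the minimum Per1 was at 39.2 and 12.5 CPM, a log2 ratio of -1.65 (-2.02 to -1.28). Pdk4 was at 26.5 and 11.8 CPM, a log2 ratio of -1.17 (-1.58 to -0.76). The intervals of Fkbp5, Sgk1, Zbtb16 and Errfi1, also under it, included 0. Of 9 hypoxia-induced genes 5 were read, 0 were at least 2-fold higher and 1 at least 2-fold lower, Vegfa, at 153 and 71.7 CPM. The median of this list was 0.12. Pgk1 was at 252 and 302 CPM, Ldha at 276 and 300 and Slc2a1 at 122 and 137. Of 6 NRF2 targets 4 were read and 2 were at least 2-fold higher, Hmox1 at 7.42 and 105 CPM and Srxn1 at 13.2 and 33.3. Gclm was at 131 and 206 CPM and Txnrd1 at 19.1 and 35.5. Hmox1, with 28 and 913 UMIs, and Srxn1, with 50 and 291, reached the minimum of 300 mostly through Opa1 cKO, the deeper library. Nqo1 and Gclc stayed under it, with log2 ratios of 0.14 (-0.24 to 0.54) and 0.15 (-0.25 to 0.56). The count of 2 among 4 rests partly on that minimum. All 7 genes of the integrated stress response (ISR) list were at least 2-fold higher, with a median of 2.79, among them Ddit3 at 49.5 and 344 CPM. Chac1, Trib3 and Asns had 2, 0 and 1 UMIs in CT and 527, 747 and 644 in Opa1 cKO, so they were read only through the latter. The study named members of this response from the same libraries, so their direction is no independent observation. Of 9 reactive astrocyte genes 3 were read and 1, Gfap, was at least 2-fold higher, at 455 and 1129 CPM. Vim was at 81.3 and 74.5 and C4b at 69.6 and 55.5, and the median log2 ratio of the 3 was -0.13. Of 10 dissociation and immediate early genes 4 were read and 0 were past 2-fold, with a median of 0.11. Fos was at 156 and 154 CPM, Jun at 139 and 163, Junb at 57.7 and 68.7 and Dusp1 at 109 and 79.2.

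Cells under 1% mt- share against those of 3% or more, within Opa1 cKO, gave 0 of 7 zinc handling genes past 2-fold with a median of 0.24, beside 0.28 over all genes, and 2 of 8 copper handling genes at least 2-fold higher, Prnp at 3351 CPM under 1% and 1509 at 3% or more and App at 90.5 and 39.9. None of the 2 iron, 3 glucocorticoid-induced (Nr3c1 included), 5 hypoxia-induced and 4 immediate early genes read was past 2-fold. Of all 4083 genes 4.04% were at least 2-fold higher and 0.882% at least 2-fold lower, so a count of 0 in lists this short is near those shares. Of the NRF2 targets 1 of 2 was at least 2-fold higher in cells under 1%, Hmox1, at 147 CPM against 18.2, and of the reactive astrocyte genes 1 of 3, Gfap, at 1408 against 551. All 7 ISR genes were at least 2-fold higher, with a median of 2.97. Hmox1, Chac1, Trib3 and Asns had 46, 12, 23 and 17 UMIs at 3% or more, so they were read only through the cells under 1%. Over all thinned Opa1 cKO cells, Mt3 had an r of -0.371 with the summed UMIs of the ISR list and 0.325 with the mt- share, Mt1 -0.246 and 0.174, and Mt2 -0.0375 and -0.0173. These values pool the mt- share groups, which differ in Mt1, Mt3 and ISR levels. No r within a group is given, so a graded relation between cells of 1 group was not shown. In CT, where the ISR list had a mean of 1.57 UMIs per thinned cell against 5.68 in Opa1 cKO, r of Mt3 was -0.0834 and 0.132. The copper handling sum, to which Prnp gives most UMIs, had an r of -0.245 with Mt3 and -0.177 with Mt1 in Opa1 cKO, and -0.100 and -0.0738 in CT. The Opa1 cKO values of this sum pool the mt- share groups as well, which also differ in Prnp. Sums of the zinc, iron, glucocorticoid-induced, hypoxia-induced, NRF2, reactive astrocyte and immediate early lists had an r between -0.160 and 0.106 with each member in both libraries. The furthest from 0 was that of Mt3 with the immediate early list, -0.160 in CT and -0.128 in Opa1 cKO. All are descriptions over cells of a library.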

How the data were processed

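Single-cell RNA of sorted YFP+ hippocampal cells was read from 1 library per genotype. The deposited values are counts: UMIs of each gene in each barcode, made by the authors with Cell Ranger on mm10, named in the submitters' processing notes as version 2.1.1, although the matrix headers name another software version. Whole-number counts were used as deposited, and the annotation used for counting is not given in the sources used here. Rows with the same symbol were summed. Both samples carry the same strain label, which names Opa1-Flox for CT too, and groups were taken from their titles.

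Kept cells had over 600 and under 7500 genes, less than 20% of UMIs from mt- genes and at least 1 YFP UMI, following the study's methods. Before the YFP filter 4186 CT and 6121 Opa1 cKO cells passed, and after it 1790 and 3764 remained. The filter thus removed a larger share of the CT cells. The study reports more cells of each genotype than were kept here, so the sets of cells are not the same. The total was 5051491 UMIs in CT and 12483473 in Opa1 cKO. Clustering used SCTransform in Seurat 5.3.0 (sctransform 0.4.2, R 4.3.3) with 8 dimensions and a resolution of 0.2. Each cluster took the name whose markers were most frequent among the 50 genes that most exceeded the mean of the other clusters (fold with 10 CPM added), given at least 3 markers over 2-fold. That comparison, with clusters weighted equally, was set after the clusters had been seen. No doublet caller was run, and leaving out the 5% of cells with most UMIs was an alternative.

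UMIs were summed per library and class. CPM has exact Poisson, shares exact binomial (Clopper-Pearson) and ratios exact binomial-split 95% intervals. Only the ratio intervals were tried on simulated counts. Those counts were drawn with counting error alone, so wider spread between cells was not covered. With 1 library per genotype no p-value is given, since cells are no replicates. The calculations used Python 3.11.15, numpy 2.4.6, scipy 1.17.1 and pandas 2.3.3. Alternatives concerned filters, clustering, scaling (edgeR 4.0.16 for TMM), weighting and depth. The genes named beside the members are the 5 most like in each of 2 measures and up to 4 genes of most UMIs per list. Others (Mtf1, Slc30a1, Per1, Pdk4, Fkbp5, Sgk1, Zbtb16, Errfi1, Nqo1, Gclc, Chac1, Trib3, Asns and App) were chosen after their values were seen. The members and lists were chosen with earlier results of these data known.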

Additional observations from a re-analysis of the deposited data

Results flagged for a closer look

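In some classes the libraries differed in the direction opposite to that of NSC pool-like cells, where the log2 ratio of Opa1 cKO over CT was -0.43 for Mt1, -0.04 for Mt2 and -0.35 for Mt3. In progenitor and neuron-like cells it was 0.72, 0.83 and 0.47 for Mt1, Mt2 and Mt3, in oligodendrocyte-like cells 0.54, 1.04 and 0.47, and in activated NSC-like cells, with 10 CT cells, 0.31 for Mt1 and 0.80 for Mt3. These differences between classes were not tested, and each class is 1 sum per library. Apoe and Aldoc, abundant in NSC pool-like cells, were higher as well, at 0.74 and 0.93 in progenitor and neuron-like cells. In oligodendrocyte-like cells they were at 0.28 and 0.96. The low levels of the members in these classes are not read as expression, and the part of free RNA was not tested. Under 5 alternatives, 3 of which were added after seeing the data, the progenitor and neuron-like values lay between 0.51 and 0.72 for Mt1, 0.64 and 0.94 for Mt2 and 0.05 and 0.64 for Mt3, and the oligodendrocyte-like values between 0.15 and 0.54, 0.55 and 1.13 and 0.20 and 1.00. The activated NSC-like values lay between -0.18 and 0.30 for Mt1 and between -0.34 and 0.80 for Mt3, so their direction turned. Progenitor and neuron-like cells that had no YFP UMI, 85 CT and 56 Opa1 cKO, gave -0.39 for Mt1, 0.88 for Mt2 and -0.83 for Mt3.

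Cells without a YFP UMI, which were left out of the main comparisons and entered only the alternative without that filter, also held metallothionein transcripts. The 1836 CT NSC pool-like cells of this kind had 16036 CPM of Mt1, 4698 of Mt2 and 8063 of Mt3, and the 1491 Opa1 cKO cells 13179, 4586 and 6950. Their log2 ratios were -0.28, -0.03 and -0.21, the same direction as in cells with a YFP UMI.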

How the results depend on the processing

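Over the alternatives 49 values of the ratios and 2-fold shares stayed within the counting interval of the reported value, or within 1.5 times for a share, 30 moved further, and none turned the direction of a ratio in NSC pool-like cells whose interval excluded 0. In smaller classes the direction did turn, from -0.18 to 0.45 for Mt1 in mural-like cells without the YFP filter, and in activated NSC-like cells clustered after log-normalization from 0.31 to -0.18 for Mt1 and from 0.80 to -0.34 for Mt3. The log2 ratios of Opa1 cKO over CT stayed between -0.57 and -0.36 for Mt1, -0.18 and -0.00333 for Mt2 and -0.49 and -0.30 for Mt3. Without the YFP filter Mt1 was -0.36 and Mt3 -0.30. Under 10% mt- share, without the 5% of cells with most UMIs, thinned, and in cells of 2000 to 4000 UMIs Mt1 was -0.44, -0.40, -0.40 and -0.41. Without mt- UMIs the 3 members were -0.48, -0.092 and -0.41, scaled by the median of ratios -0.57, -0.18 and -0.49, and as a mean over cells Mt1 was -0.39 and Mt2 -0.00333. For low over high mt- share, leaving mt- UMIs out gave -0.39, -0.071 and -0.59, the median of ratios -0.59, -0.27 and -0.78 and TMM -0.52, -0.20 and -0.71, so that the sign of Mt2 turned with the scaling, although its interval included 0. Mt1 was -0.29 as a mean over cells, -0.29 thinned and -0.26 at 2000 to 4000 UMIs, and Mt3 -0.54 with low set under 0.5%. Genes at least 2-fold lower were 2.01% at 100 UMIs or more and 9.46% at 1 UMI or more in each library, and genes at least 2-fold higher 5.26% at the latter. Levels by class and Fano factors gave 66 values that stayed and 30 levels that moved, 25 of them without the YFP filter. Leaving out a replicate was not possible with 1 library per genotype. No paired analysis was possible because the labels give no replicate numbers and each genotype has 1 library.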
